A study of Mus musculus with 14 samples.

Results

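The genes described here carried at least 1 H3K27ac region that was at least 2-fold higher and at least 1 that was at least 2-fold lower after a RANKL protocol in mouse small intestinal organoids. H3K27ac is the acetylation of histone H3 at lysine 27. The members were chosen on these H3K27ac values themselves. A region was kept where its mean over the 6 H3K27ac libraries was at least 10 CPM (counts scaled to the library's total over regions) and a protein-coding gene span lay within 100 kb, and it was assigned to the nearest span. A kept region is called gained where the mean CPM with RANKL divided by the mean CPM in control was 2 or more, lost where that ratio was 0.5 or less, and other where it lay between. In all, 91 genes on 19 chromosomes had both kinds, with 630 kept regions of the 55050 in the series: 115 gained, 111 lost and 404 other. These genes made up 1.68% of the 5410 genes with 2 or more kept regions. Among the rest of those, 1212 had gained and no lost regions, 622 had lost and no gained regions, and 3485 had neither. Where the ratio had to pass its limit between the same-numbered libraries of each experiment (a replicate block), 42 of the 91 genes were left.

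The organoids are self-renewing epithelial cultures from 1 female mouse carrying Lgr5GFPDTR/+, an allele that puts a fluorescent protein and the diphtheria toxin receptor under the stem cell gene Lgr5, so that both groups share this genotype and donor. The mouse's age is not given in the labels. Control organoids (3 H3K27ac libraries) were kept in ENR medium, which holds EGF, Noggin and R-spondin 1. RANKL organoids (3 libraries) had 3 days in ENR with 3 µM CHIR99021, an inhibitor of the kinase GSK3 that activates Wnt signalling, and 1.5 mM valproic acid, a histone deacetylase inhibitor, then 1 day in ENR, then 100 ng/mL RANKL with harvest at day 6. The labels do not record the first 2 agents for the controls, so effects of RANKL and of the earlier CHIR99021 and valproic acid cannot be told apart. Replicates 1 to 3 are independent differentiation experiments, and the labels give the same experiment numbers to both groups. Same-numbered libraries did not deviate together (correlations of 0.013, -0.012 and -0.032 over regions), so values within an experiment rest on the number in the labels alone.

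The assay was ChIPmentation, a form of chromatin immunoprecipitation that uses Tn5 transposase to fit adapters onto the precipitated chromatin. H3K27ac is laid down by the acetyltransferases CBP and p300 and removed by histone deacetylases, and it marks active promoters and active enhancers. A gene can be served by several enhancers, each used in different cell types or states, so the mark at one element can grow while it fades at another. RANKL is a cytokine made by cells beneath the epithelium over the gut's lymphoid follicles. It drives intestinal epithelial cells toward microfold (M) cells, which pass antigen to the lymphoid tissue. The cultures were measured in bulk, so that more or fewer cells of a type and more or less acetylation per cell cannot be told apart.

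Total reads in regions were 5434172 to 9160267 in the control and 2745451 to 3902301 in the RANKL libraries, and the member regions held 1.59% to 1.67% of them. The lowest count of any member region in any library was 4 reads. Summed H3K27ac around the 10 epithelial identity genes checked (Epcam, Cdh1 and keratins among them, all with kept regions) was 2483 to 2665 CPM in control and 2278 to 2361 CPM with RANKL, and that around the M cell marker list (29 of 36 genes with kept regions) was 1605 to 1690 CPM against 2662 to 2718 CPM. Lists for other cell types also differed. Endothelial genes summed to 471 to 490 CPM in control against 524 to 536 CPM with RANKL (6 of 11 genes with kept regions), mesenchymal genes to 273 to 290 against 342 to 358 (3 of 14), leukocyte genes to 181 to 199 against 417 to 426 (4 of 14) and neural genes to 303 to 349 against 606 to 638 (3 of 12). The T and B cell genes Cd3e, Cd3g and Cd79a, the macrophage genes Cd68 and Lyz2 and the glial genes Sox10 and S100b had no region at all. Cd247 (46.4 to 246 CPM) and Syt1 (75.6 to 266 CPM) had the largest differences in mean level on their lists. The leukocyte genes Ptprc (15.4 to 22.6 CPM), Cd14 (50.2 to 72.6), Csf1r (7.08 to 12.8), Cd52 (5.30 to 12.4) and Adgre1 (2.48 to 5.61) were also higher. Itgam (45.5 to 39.8 CPM) and Itgax (15.3 to 9.27) were lower. Against the sums of their lists, Vwf, Eng, Pecam1 and Plvap were lower with RANKL, and Epcam, Cdx2 and Hnf4a were higher. None of the genes on these 6 lists was a member, and the part of these shifts in the results below was not tested.

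Promoter sequences are shown first for genes where a start of transcription itself lay in a changed region. Such a region is tied to its gene by the start it holds as well as by the nearest-gene step. Changed regions without a start rest on the nearest-gene step alone. Each sequence is the 250 bases just before an annotated start site, from the RefSeq table of GRCm38.p6, written 5′ to 3′ on the gene's strand in lower case. Capitals mark letters found on either strand of 5 short motifs: ATCAAT (the ONECUT core), TGANTCA (AP-1), AGGAAG (ETS), TCAAAG (TCF/LEF) and GGGANTTCC (NF-kB). The gene Ppp1r12b, which encodes a myosin phosphatase subunit, was the one member with a start in both a gained and a lost region by the rule as given (its lost region, described further on, is close to the limit), and neither of its windows holds any of the motifs. The stem cell gene Olfm4 and the growth factor receptor gene Fgfr2 had their start in a lost region, and Spaca7, an acrosome gene, had its start in a gained region.
Ppp1r12b, start in a gained region, chr1:134803843-134804092, minus strand: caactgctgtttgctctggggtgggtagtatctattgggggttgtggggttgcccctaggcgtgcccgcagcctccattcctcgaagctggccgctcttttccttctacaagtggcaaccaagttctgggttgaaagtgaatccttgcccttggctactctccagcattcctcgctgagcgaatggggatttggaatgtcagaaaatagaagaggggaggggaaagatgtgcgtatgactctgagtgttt
Ppp1r12b, start in a lost region, chr1:134955941-134956190, minus strand: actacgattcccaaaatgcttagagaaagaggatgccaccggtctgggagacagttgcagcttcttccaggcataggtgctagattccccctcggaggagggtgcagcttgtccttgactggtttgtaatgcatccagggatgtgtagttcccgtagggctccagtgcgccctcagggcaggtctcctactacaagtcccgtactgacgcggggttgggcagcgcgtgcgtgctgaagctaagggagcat
Olfm4, start in a lost region, chr14:80000052-80000301, plus strand: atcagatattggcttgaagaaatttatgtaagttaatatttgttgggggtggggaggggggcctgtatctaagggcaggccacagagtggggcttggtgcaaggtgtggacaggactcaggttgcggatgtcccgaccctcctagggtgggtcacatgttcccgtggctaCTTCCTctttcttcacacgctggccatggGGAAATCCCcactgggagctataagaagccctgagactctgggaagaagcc
Fgfr2, start in a lost region, chr7:130266809-130267058, minus strand: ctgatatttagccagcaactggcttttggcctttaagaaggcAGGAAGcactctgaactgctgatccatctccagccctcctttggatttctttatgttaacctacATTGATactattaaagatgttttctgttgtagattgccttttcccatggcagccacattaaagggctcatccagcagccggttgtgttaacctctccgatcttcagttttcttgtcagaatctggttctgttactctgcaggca
Spaca7, start in a gained region, chr8:12572786-12573035, plus strand: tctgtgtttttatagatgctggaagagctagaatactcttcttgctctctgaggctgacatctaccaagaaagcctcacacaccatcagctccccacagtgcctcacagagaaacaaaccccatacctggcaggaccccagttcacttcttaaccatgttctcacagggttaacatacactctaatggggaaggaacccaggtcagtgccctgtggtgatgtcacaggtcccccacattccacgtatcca
The Olfm4 window holds an ETS match and, nearer the start, an NF-kB match, and the Fgfr2 window holds an ETS and an ONECUT core match. Over the 22 member promoters in lost regions, AGGAAG was found in 11 (50.0%), TCAAAG in 2, ATCAAT and GGGANTTCC in 1 each and TGANTCA in 0. The 37 member promoters in other regions held AGGAAG in 6 (16.2%), and the 4 in gained regions held TGANTCA in 1 (that of Eml1) and none of the other motifs. Of all 21262 protein-coding promoters in the table, 28.5% held AGGAAG, 12.7% TCAAAG, 6.13% TGANTCA, 5.97% ATCAAT and 1.58% GGGANTTCC. These matches are descriptions of letters, not of binding.

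Across all members, gained regions went from weak to strong and lost regions from strong to weak. The median gained region had 7.55 CPM in control and 27.7 CPM with RANKL, and the median lost region 29.2 and 11.6 CPM. Ratios ran from 2.00 to 20.7 in gained regions (median 3.37) and from 0.216 to 0.498 in lost regions (median 0.424), while the other regions had a median of 0.885. Over all kept regions, 8.42% were gained and 4.81% lost. Summed over the gained regions, the control libraries held 1094, 1168 and 1073 CPM and the RANKL libraries 4046, 4146 and 4038 CPM. The lost regions summed to 3729, 3619 and 3689 CPM in control and 1465, 1533 and 1560 CPM with RANKL. The other regions summed to 11909, 11744 and 11886 CPM in control and 10421, 10717 and 10686 CPM with RANKL. Replicates thus lay within a narrow range in each class, and the groups did not overlap in any of the 3 sums, of which the first 2 follow from the choice of members.

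In each of the 115 gained regions the 3 RANKL libraries lay above the 3 control libraries, and in each of the 111 lost regions below them. Over all kept regions 24.2% had the RANKL libraries all above and 38.2% all below. All 115 gained regions were called higher and all 111 lost regions lower by edgeR's quasi-likelihood test (Benjamini-Hochberg adjusted over all regions tested), which called 14.8% of 54765 regions higher and 21.0% lower (8120 and 11523 regions, but 9918 and 9608 when scaled by library size only). Since the members were chosen on this contrast, nothing is read from these counts. Of the 404 other regions, 42 were called higher, 170 lower and 192 not called. Of all 21925 kept regions in the other class, 2321 were called higher and 9035 lower, shares close to those of the members. Scaled by library size only, edgeR called 52 of the 404 higher and 145 lower. In 88 of the 115 gained and 59 of the 111 lost regions the ratio passed its limit in each of the 3 experiments. Over all kept regions it did so in 1616 of 2127 gained and 610 of 1216 lost ones, which are similar shares.

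**Figure D1:**
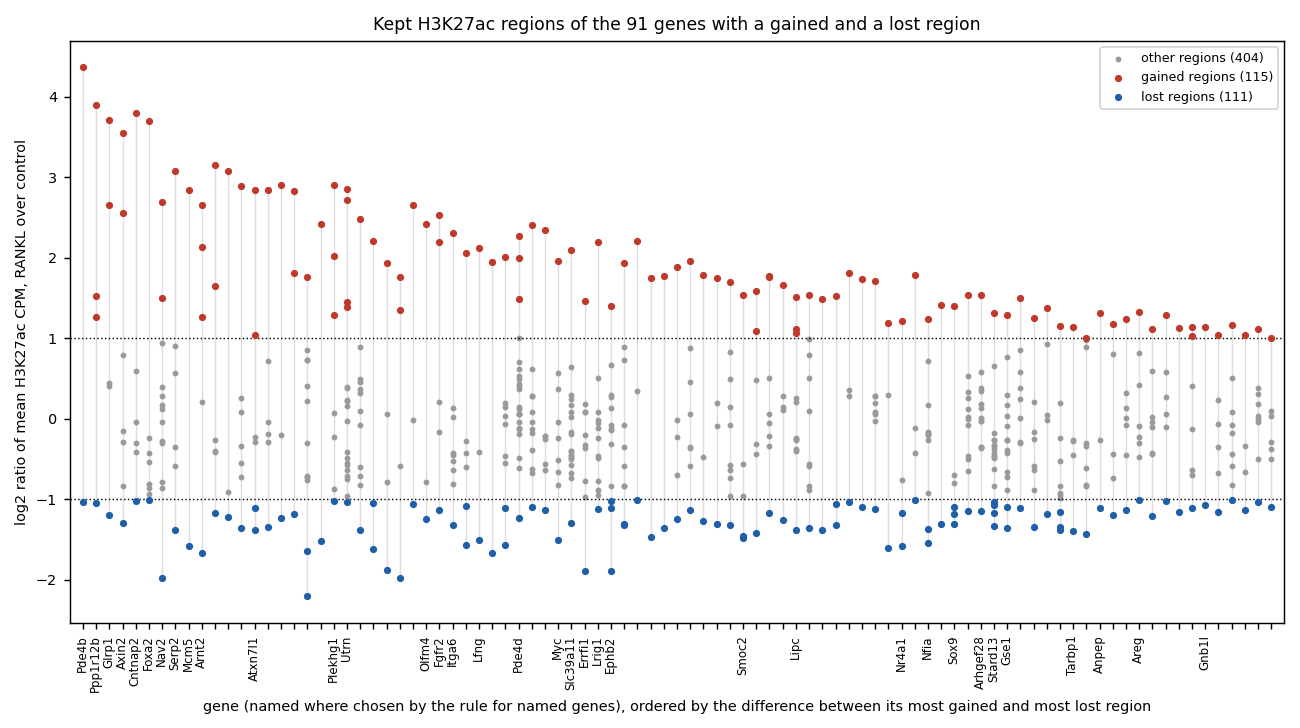
Log2 ratio of mean H3K27ac CPM (RANKL over control, 3 libraries each) for every kept region of the 91 genes, ordered by the difference between the most gained and most lost region, with the names of 35 genes. Red points are gained, blue lost and grey other regions, dotted lines are the limits of the rule, and gained regions reach a ratio of 20.7 (Pde4b) while lost regions reach 0.216.

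The ratio limits cut through a continuous range. The gained regions just inside the limit that decided membership were those of Carmil1 (ratio 2.003, 13.8 to 27.7 CPM) and Rbms3 (2.004, 11.0 to 22.1 CPM), and just outside lay those of Foxo6 (1.979, 7.60 to 15.0 CPM) and Diaph3 (1.978, 7.64 to 15.1 CPM). On the lost side, Mtmr7 (0.498, 18.1 to 9.01 CPM) and Spaca7 (0.496, 21.4 to 10.6 CPM) lay just inside, and Vwa3b (0.5003, 19.8 to 9.89 CPM) and Nsmce2 (0.502, 15.9 to 7.96 CPM) just outside.

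Stem cell genes and Wnt targets were the largest group among the lists of intestinal genes. In the crypt, Wnt signals and R-spondin keep stem cells dividing, and genes such as Axin2 report that signal. Of 23 genes on this list with 2 or more kept regions, 7 were members (30.4%): Axin2, Ephb2, Lrig1, Myc, Olfm4, Smoc2 and Sox9. Of the other 16 genes, 3 had gained and no lost regions, 3 had lost and no gained regions and 10 had neither. The list was written with earlier results of these data known, and its genes have many regions: among genes with 6 or more kept regions, 5 of 13 on the list (38.5%) and 51 of 720 in all (7.08%) were members. Within each of the 3 experiments, 5 of the 7 kept both a gained and a lost region, the exceptions being Ephb2 and Lrig1. On the other lists with members this held for 1 of 5 growth factor and kinase genes, 1 of 3 junction and cytoskeleton genes, 1 of 1 Notch gene, 0 of 2 transcription factors, 0 of 1 enterocyte gene and 0 of 1 fetal gene. Of the 35 genes described by name under the rule for named genes, 16 held both kinds within each experiment and 24 stayed members whichever single library was left out. The other 11 are marked below with the libraries concerned. There the limits are a log2 ratio of -1 or 1 and a mean of 10 CPM over the libraries left. With the trend of the ratio on signal strength removed, the named genes Anpep, Areg, Gnb1l, Plekhg1 and Ppp1r12b were no members.

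Axin2 encodes a scaffold of the complex that degrades beta-catenin and is itself switched on by Wnt. Its region 22.1 kb before the start (chr11:108897270-108899270) had 6.99, 10.2 and 9.14 CPM in the 3 control libraries and 94.7, 115 and 98.7 CPM in the 3 RANKL libraries, a ratio of 11.7. A second gained region 3.90 kb beyond the gene (chr11:108954681-108956681) went from 4.97, 5.46 and 6.45 CPM to 32.4, 32.0 and 34.9 CPM. The next kept region, 25.0 kb further out (chr11:108979658-108981658), was lost, with 43.4, 48.0 and 42.3 CPM in control and 16.8, 21.5 and 16.1 CPM with RANKL, a ratio of 0.407. All 3 regions lay outside the gene, and the one at its start was an other region with a ratio of 0.821. Summed over its 7 kept regions, Axin2 had 209 ± 2.09 CPM in control and 285 ± 13.2 CPM with RANKL (SD, n = 3).

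Olfm4, a secreted glycoprotein that marks crypt stem cells, had its loss at the promoter printed above, unlike Axin2. The region over its start (chr14:79999249-80001249) had 23.0, 21.8 and 21.7 CPM in control and 9.11, 9.53 and 9.48 CPM with RANKL, a ratio of 0.423. The region 83.3 kb before the start (chr14:79916019-79918019) had 12.1, 12.0 and 9.86 CPM in control and 63.4, 64.0 and 54.8 CPM with RANKL, a ratio of 5.36. Between them lay 1 other region with a ratio of 0.577, so that the distant region alone was higher. It carried the sum of the 3 regions from 48.2 ± 3.09 to 78.6 ± 6.91 CPM (SD, n = 3).

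Sox9 and Smoc2 held the closest pairs of a gained and a lost region among all members. Sox9, a transcription factor of crypt progenitors and Paneth cells, had a lost region over one end of its 5.55 kb span (chr11:112781171-112783171) with 65.5, 59.6 and 61.3 CPM in control and 26.2, 29.2 and 26.9 CPM with RANKL. The region over the other end, 6.35 kb away (chr11:112787525-112789525), was gained, with 19.1, 16.9 and 19.5 CPM in control and 48.4, 51.7 and 46.1 CPM with RANKL. Acetylation thus moved in opposite directions at the ends of one short gene, and 2 more lost regions lay 30.0 and 46.8 kb outside it. Smoc2, a secreted matricellular protein of the stem cell signature, had a lost region over one end (chr17:14278356-14280356), with 34.6, 32.8 and 31.9 CPM in control and 12.0, 8.61 and 15.6 CPM with RANKL. Its gained region 9.05 kb further in (chr17:14287407-14289407) had 21.3, 22.1 and 16.7 CPM in control and 54.6, 57.2 and 62.8 CPM with RANKL. The most lost region of Smoc2, 28.7 kb outside the gene, went from 35.5 ± 3.13 to 12.7 ± 2.55 CPM.

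Ephb2, Lrig1 and Myc had many regions, most of them in the other class. Ephb2, the receptor tyrosine kinase that positions cells along the crypt, had 13 kept regions, of which the 3 lost ones lay near its start and the gained one lay deep in the gene. The most lost, 20.3 kb inside the start (chr4:136814677-136816677), had 26.7, 21.5 and 17.2 CPM in control and 2.91, 8.30 and 6.41 CPM with RANKL. Its gained region, 86.8 kb inside (chr4:136748222-136750222), had 8.28, 13.1 and 13.4 CPM in control and 35.7, 26.1 and 30.2 CPM with RANKL, and its ratio in single experiments ran from 1.99 to 4.31. Lrig1, a brake on ErbB receptors found in stem cells, also had 13 kept regions. The Lrig1 region 79.8 kb before the start (chr6:94778936-94780936) was gained, with 7.54, 6.88 and 5.02 CPM in control and 29.1, 34.1 and 25.9 CPM with RANKL. A Lrig1 region nearer the start, 9.15 kb before it (chr6:94708296-94710296), was lost, with 17.3, 21.0 and 21.0 CPM against 9.11, 7.38 and 10.8 CPM. Without RANKL replicate 2 its log2 ratio was -0.99, and Lrig1 was no longer a member. The libraries did not overlap at any of these 4 regions, and the summed level of both genes was lower with RANKL in every library (Ephb2 371 ± 4.86 to 326 ± 2.79 CPM, Lrig1 458 ± 5.61 to 374 ± 14.5 CPM, SD, n = 3).

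Myc, the growth-promoting transcription factor downstream of Wnt, had both changed regions on the same side of its 5.02 kb span. The gained one, 9.97 kb from the span (chr15:61973370-61975370), had 2.02, 5.57 and 7.17 CPM in control and 19.7, 18.4 and 19.2 CPM with RANKL, and its low control value in experiment 1 spread the ratio within experiments from 2.68 to 9.72. The lost one, 44.8 kb from the span (chr15:61938517-61940517), had 28.3, 25.9 and 29.0 CPM in control and 10.9, 9.84 and 8.46 CPM with RANKL. One other region lay between them. The sum over the 9 kept regions of Myc was lower with RANKL in every library, at 224 ± 6.11 against 181 ± 7.34 CPM.

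**Figure D2:**
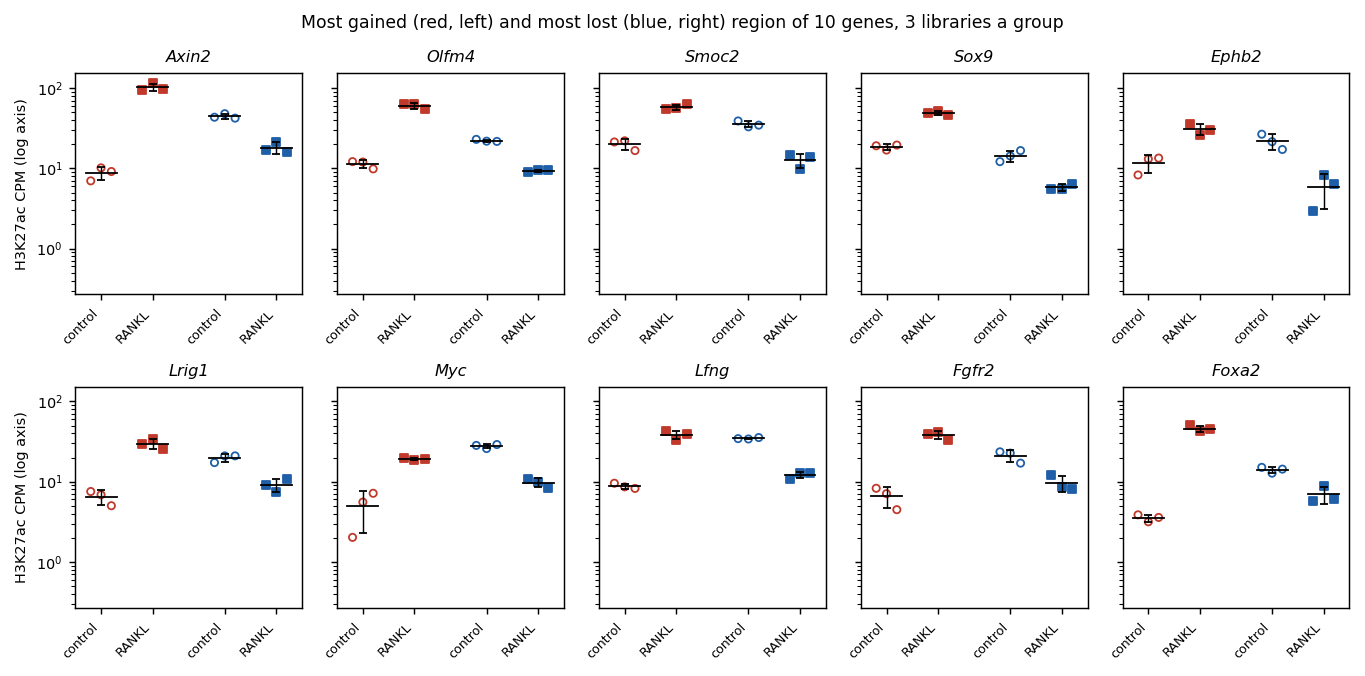
H3K27ac CPM (log axis) in each of 3 control (open circles) and 3 RANKL libraries (filled squares) at the most gained (red) and most lost (blue) region of 10 genes, with bars for the mean and its SD. At every gene shown the RANKL squares lie above the control circles at the red region and below them at the blue one, for example 94.7 to 115 CPM against 6.99 to 10.2 CPM at the gained region of Axin2.

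Among growth factor and kinase signalling genes, 5 of 38 with 2 or more kept regions were members (1.68% over all genes, and 7.08% with 6 or more kept regions): Areg, Ephb2, Errfi1, Fgfr2 and Pde4d. Within each experiment, Errfi1 alone of these kept both kinds. Of the remainder, 11 had gained and no lost regions, 9 the reverse and 13 neither. Areg encodes amphiregulin, a ligand of the EGF receptor, and Errfi1 an intracellular inhibitor of the same receptor. The gained region of Areg, 15.1 kb before its start (chr5:91123481-91125481), had 11.2, 11.7 and 8.61 CPM in control and 22.6, 28.0 and 28.7 CPM with RANKL. Its lost region, 23.4 kb after the start (chr5:91161968-91163968), had 23.7, 20.6 and 25.3 CPM in control and 9.11, 9.53 and 15.9 CPM with RANKL, a ratio of 0.496 close to the limit. Areg was no member without control replicate 1 or 3 or without RANKL replicate 1 or 2, where the lost log2 ratio was -0.87 to -0.996. Gain and loss nearly cancelled at Areg, whose 8 regions summed to 170 ± 0.159 CPM in control and 172 ± 17.8 CPM with RANKL, with overlapping libraries. Errfi1 had 10 kept regions, of which the outermost ones on either side were the changed ones. Its lost region (chr4:150780512-150782512), 72.3 kb before the start, had 42.3, 41.2 and 39.6 CPM in control and 8.38, 11.7 and 13.1 CPM with RANKL, and its gained region (chr4:150880407-150882407) had 12.7, 12.7 and 10.2 CPM against 35.7, 32.9 and 29.7 CPM. Errfi1 as a whole was lower, at 388 ± 11.5 against 298 ± 6.62 CPM.

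Fgfr2, a receptor for fibroblast growth factors, lost acetylation over its start and gained it inside and beyond the gene. The region holding the promoter printed above (chr7:130265308-130267308) had 23.6, 22.7 and 17.0 CPM in control and 12.0, 8.61 and 8.20 CPM with RANKL. The region 29.4 kb inside the gene (chr7:130236435-130238435) had 9.57, 11.7 and 12.5 CPM in control and 51.7, 51.0 and 52.0 CPM with RANKL. A second gained region 62.5 kb beyond the far end (chr7:130097913-130099913) had 8.28, 7.10 and 4.48 CPM in control and 39.7, 41.8 and 33.1 CPM with RANKL. The 2 remaining Fgfr2 regions had ratios of 0.891 and 1.16, and the sum was higher in every RANKL library (80.7 ± 6.68 to 144 ± 6.78 CPM).

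Pde4b and Pde4d encode phosphodiesterases that break down cyclic AMP. Pde4b had the largest ratio of any member region, 24.1 kb outside its span (chr4:102061244-102063244), with 2.02, 1.75 and 0.717 CPM in control and 31.0, 33.8 and 27.9 CPM with RANKL, a ratio of 20.7. The only other kept region of Pde4b, inside the gene (chr4:102505789-102507789), was lost with a ratio of 0.490, from 12.7, 16.2 and 16.7 CPM to 2.91, 7.07 and 12.3 CPM, and the highest RANKL value came close to the lowest control value. Its log2 ratio was -0.65 without RANKL replicate 1 and -0.96 to -0.996 without control replicate 2 or 3 or RANKL replicate 2, so Pde4b was no member in any of these 4 cases or within each experiment. Pde4d had the most kept regions of all members, 23, of which 3 were gained and 1 lost. Its most gained region, 50.5 kb before the start (chr13:108602691-108604691), had 3.68, 5.46 and 2.51 CPM against 19.7, 17.5 and 19.0 CPM, and its lost region near the far end (chr13:109836672-109838672) had 22.1, 23.5 and 24.2 CPM against 12.4, 7.69 and 9.48 CPM.

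Lfng was the single member among 15 Notch pathway genes with 2 or more kept regions. It encodes lunatic fringe, a glycosyltransferase that tunes which ligands a Notch receptor answers to. The lost region 10.4 kb before its start (chr5:140595945-140597945) had 34.4, 34.1 and 35.5 CPM in control and 10.9, 12.9 and 12.8 CPM with RANKL. The gained region just beyond its end (chr5:140615875-140617875) had 9.57, 8.62 and 8.25 CPM in control and 42.6, 33.2 and 39.5 CPM with RANKL. Replicate spread was small beside both differences, and the region between them had a ratio of 0.748.

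Among intestinal transcription factors, 2 of 47 genes with 2 or more kept regions were members (1.68% over all genes), Foxa2 and Nfia, and neither held both kinds within each experiment. Foxa2, a pioneer factor of endoderm-derived epithelium, had 8 kept regions of which 7 had lower means with RANKL. The exception, 33.6 kb before the start (chr2:148079541-148081541), had 3.86, 3.17 and 3.59 CPM in control and 50.3, 42.4 and 45.1 CPM with RANKL, a ratio of 13.0 that held between 12.6 and 13.4 within the experiments. Its lost region 61.7 kb after the start (chr2:147984285-147986285) sat at a ratio of 0.495, with 15.1, 12.8 and 14.3 CPM against 5.83, 8.92 and 6.15 CPM. Foxa2 was no member without control replicate 1 (lost log2 ratio -0.96), control replicate 3 or RANKL replicate 3 (-0.93). Without control replicate 3 the lost log2 ratio still passed its limit (-1.0002), but the region's mean over the libraries left was under 10 CPM. Nfia, a nuclear factor I gene, had 2 lost regions before its start, with ratios of 0.344 and 0.387, and a gained region beyond its far end with a ratio of 2.36. No gained and lost region of Nfia lay closer than 599 kb to each other.

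The transcription factor genes Arnt2 and Nr4a1 were named for their spread, level or closeness. Arnt2, a partner of bHLH-PAS factors, had its start in a lost region (chr7:84408734-84410734) with 40.5, 38.0 and 39.8 CPM in control and 12.4, 8.92 and 15.9 CPM with RANKL. At the far end of Arnt2, 3 neighbouring regions were gained. The strongest of them (chr7:84247070-84249070) had 15.8, 15.4 and 13.4 CPM in control and 63.0, 57.8 and 75.6 CPM with RANKL, and the next (chr7:84239771-84241771) 12.0, 10.3 and 7.53 CPM against 60.1, 62.1 and 64.6 CPM. The sum over Arnt2 went from 86.8 ± 3.71 to 178 ± 13.4 CPM although its start lost acetylation. With regions assigned to the nearest start site instead, Arnt2 was no member, so its gained and lost regions then did not both go to it. Nr4a1, an immediate early nuclear receptor, lost acetylation over its start (chr15:101265762-101267762), with 31.8, 39.4 and 35.0 CPM against 12.4, 13.2 and 9.74 CPM, and gained it 10.7 kb away, just beyond its end (chr15:101276416-101278416), with 7.36, 8.95 and 7.35 CPM against 21.1, 17.5 and 16.1 CPM. Unlike Arnt2, Nr4a1 was lower as a whole (143 ± 2.61 to 85.7 ± 4.81 CPM).

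**Figure D3:**
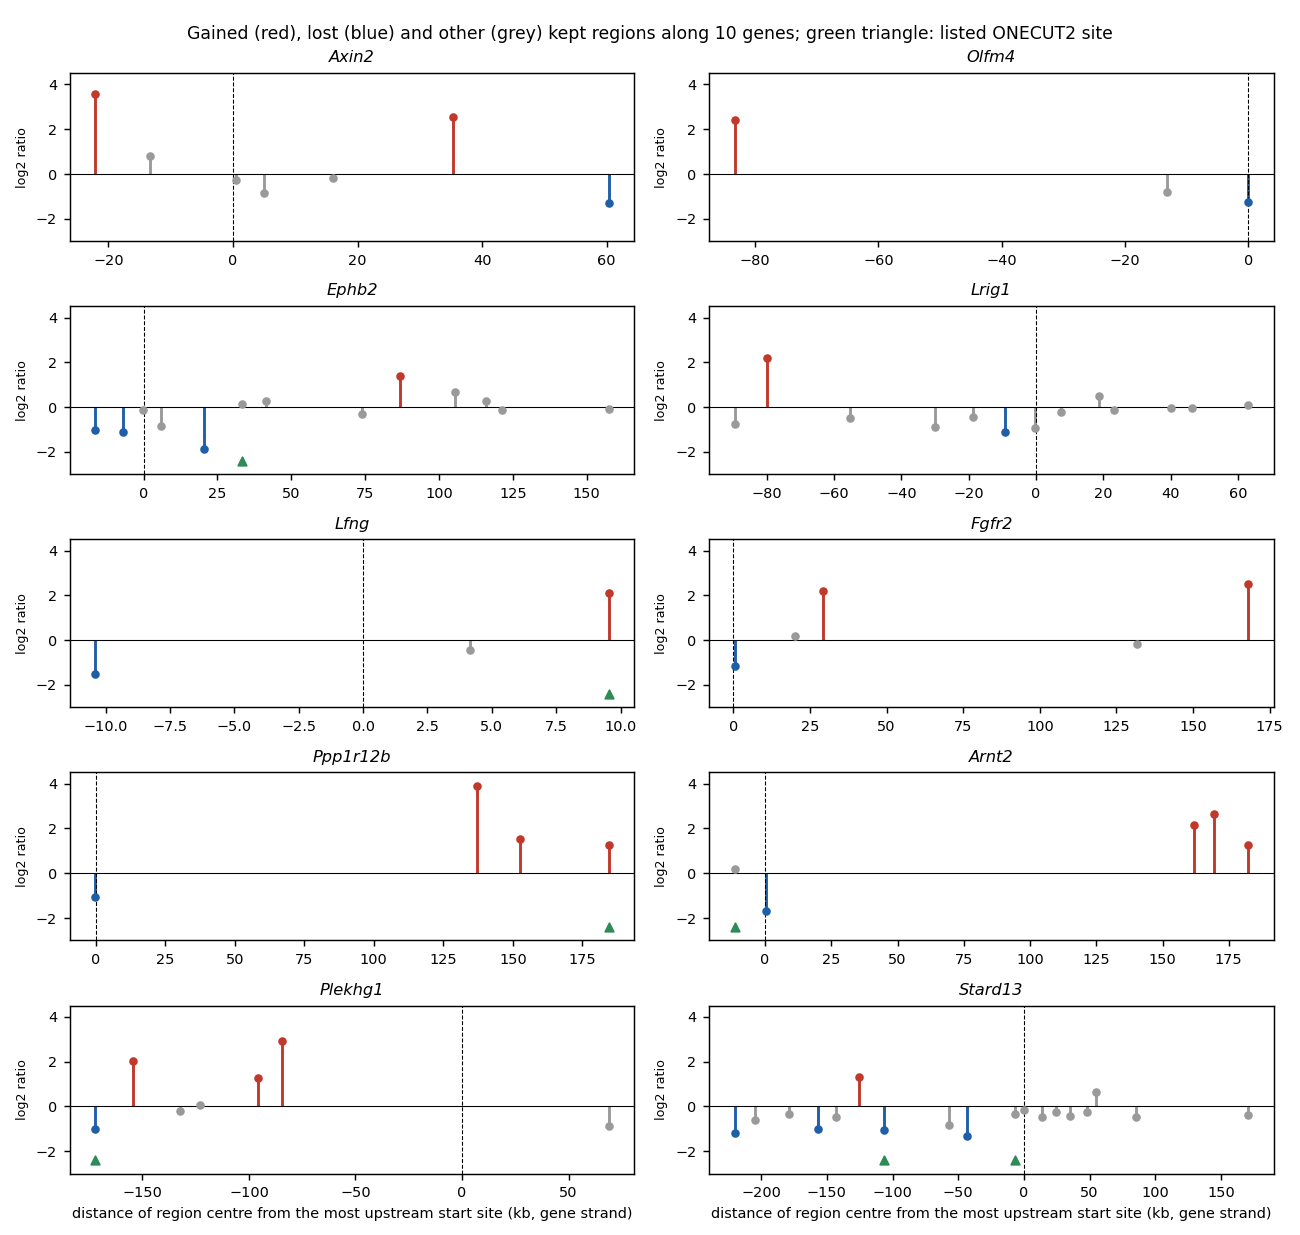
Log2 ratio of each kept region (RANKL over control) against the distance of its centre from the gene's most upstream start site in kb, on the gene's strand, for 10 genes. Gained regions are red, lost blue and other grey, the dashed line is the start, and green triangles mark regions with an ONECUT2 site in the authors' deposited table. The loss sits at the start in Olfm4, Fgfr2, Ppp1r12b and Arnt2, and at Arnt2 and Ppp1r12b the 3 gained regions lie together far along the gene.

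Cell junction and cytoskeleton genes gave 3 members of 37 with 2 or more kept regions (1.68% over all genes), of which Itga6 alone held both kinds within each experiment. Itga6 encodes an integrin of hemidesmosomes, and its gained region 34.3 kb from the span (chr2:71750561-71752561) was among the strongest, with 21.2, 20.9 and 21.3 CPM in control and 101, 107 and 106 CPM with RANKL. The lost region of Itga6, 94.9 kb from the span on the same side (chr2:71689951-71691951), had 29.6, 35.7 and 34.4 CPM against 14.2, 15.7 and 9.99 CPM. Plekhg1, a guanine nucleotide exchange factor, had a lost region (chr10:3699598-3701598) with 40.3, 34.1 and 35.3 CPM against 12.7, 20.6 and 20.5 CPM. Its nearest gained region, 17.6 kb away (chr10:3717148-3719148), had 16.7, 13.6 and 14.2 CPM against 56.8, 60.9 and 63.0 CPM, and 2 more gained regions followed inside the span. Arhgef28, another exchange factor gene, had ratios of 2.89 and 0.451 at its gained and lost regions, 153 kb apart within a gene of 308 kb. Plekhg1 was no member without control replicate 1 (lost log2 ratio -0.95) or RANKL replicate 1 (-0.83), and Arhgef28 was none without RANKL replicate 1 (-0.97).

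Further members with roles in the cytoskeleton were named for spread or number of regions. Ppp1r12b had 4 kept regions, none in the other class. The region 137 kb inside the gene (chr1:134817952-134819952) had 3.86, 7.31 and 4.84 CPM in control and 81.2, 81.2 and 75.6 CPM with RANKL, a ratio of 14.9. The one over the internal start printed above (chr1:134802512-134804512) had 10.7, 7.86 and 10.2 CPM against 22.6, 28.6 and 31.5 CPM, whereas the one over the outermost start (chr1:134955000-134957000) had 29.8, 24.6 and 25.8 CPM against 10.6, 15.1 and 13.1 CPM. The most upstream start was thus lower while an internal start was higher. The loss was near the limit: its log2 ratio was -0.93 without RANKL replicate 1, -0.97 without control replicate 1 and -0.95 with the trend on signal strength removed, so Ppp1r12b was no member in these cases or within each experiment. Stard13, a GTPase-activating protein gene, was the opposite in number, with 4 lost and 1 gained among 18 kept regions. Its strongest lost region (chr5:151232774-151234774) had 80.8, 70.7 and 77.1 CPM against 34.6, 27.1 and 29.0 CPM. Stard13 was no member without RANKL replicate 2. The summed level of Stard13 was lower (578 ± 10.3 to 421 ± 20.5 CPM) and that of Ppp1r12b higher (48.3 ± 1.72 to 136 ± 5.41 CPM), the highest summed ratio of all members at 2.81.

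Utrn, the dystrophin homologue utrophin, had 4 gained regions and 1 lost among 19, with ratios of 2.62 to 7.26 for the gained and 0.486 for the lost. Its sum overlapped between groups (364 ± 16.7 and 348 ± 9.48 CPM). Utrn was no member without RANKL replicate 1, where its lost log2 ratio was -0.87. Nav2, a neuron navigator gene, had the most lost region among the genes named here, with 39.6, 33.5 and 34.8 CPM in control and 5.83, 8.92 and 12.6 CPM with RANKL inside the gene (chr7:49164054-49166054), a ratio of 0.253. Another region of Nav2 further along (chr7:49472486-49474486), had 5.15, 12.0 and 6.10 CPM against 55.4, 43.7 and 51.5 CPM. Cntnap2, a neurexin family gene of 2241 kb, held the most distant pair, 1453 kb apart. Its gained region (chr6:45883630-45885630) had 2.58, 3.49 and 1.79 CPM against 36.4, 35.0 and 37.7 CPM, and its lost region 35.0 kb beyond the end (chr6:47336441-47338441) had 20.8, 17.6 and 19.5 CPM against 6.92, 8.30 and 13.3 CPM. Cntnap2 was no member without control replicate 1 (lost log2 ratio -0.96), RANKL replicate 1 (-0.84) or RANKL replicate 2 (-0.93).

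Enzyme and transport genes were named mostly for the level or number of their regions. Anpep, the brush border aminopeptidase N and the only member of 21 enterocyte genes with 2 or more kept regions, had a lost region 3.79 kb inside its start (chr7:79843415-79845415) with 31.3, 27.1 and 27.6 CPM against 12.4, 13.2 and 14.1 CPM. Its gained region at the far end (chr7:79818713-79820713) had 12.1, 11.0 and 7.89 CPM against 18.9, 32.3 and 26.1 CPM. With the trend on signal strength removed, the lost log2 ratio of Anpep was -0.996 and Anpep was no member. Lipc, hepatic lipase, had 3 gained regions and 1 lost of 11, and the gained ones had mean levels of 15.3 to 41.6 CPM in control already. The strongest (chr9:70846932-70848932) had 45.1, 41.9 and 37.8 CPM against 85.2, 87.9 and 88.9 CPM. The lost region of Lipc, 29.6 kb before the start (chr9:70980865-70982865), had 20.4, 19.8 and 19.9 CPM against 10.2, 7.38 and 5.38 CPM. Slc39a11, a zinc transporter gene, had 17 other regions beside a gained one with a ratio of 4.27 and a lost one with a ratio of 0.406, and its sum was lower (653 ± 11.8 to 566 ± 9.47 CPM).

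Mcm5, a subunit of the replicative helicase, had 2 kept regions and the same sum in both groups within error (46.8 ± 2.17 and 44.7 ± 5.24 CPM). The region over its start (chr8:75108407-75110407) had 41.2, 43.6 and 42.7 CPM in control and 11.7, 13.2 and 17.7 CPM with RANKL. The region 28.3 kb beyond its end (chr8:75156699-75158699) had 3.13, 5.02 and 4.66 CPM against 31.7, 27.1 and 32.8 CPM. A summed level would have shown no difference at Mcm5, although its regions differed by a ratio of 0.334 at the start and 7.15 beyond the end.

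Gnb1l, a WD-repeat protein gene, and Tarbp1, an RNA methyltransferase gene, were the remaining close pairs. At Gnb1l the region over the start (chr16:18497776-18499776) had 55.2, 47.6 and 52.7 CPM against 23.7, 23.1 and 27.2 CPM, and one 10.6 kb inside (chr16:18508374-18510374) had 9.39, 13.3 and 13.1 CPM against 25.1, 26.7 and 27.2 CPM. At Tarbp1 the start region had a ratio of 0.380 and one 10.8 kb inside a ratio of 2.20. Both genes thus had less acetylation at the start and more close by within the gene. Gnb1l was no member without control replicate 1, where its gained log2 ratio was 0.997. With the trend on signal strength removed its lost log2 ratio was -0.84, and Gnb1l was no member either.

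Glrp1 and Serp2 had strongly gained regions far outside the gene. At Glrp1, a region 59.8 kb outside the span (chr1:88585734-88587734) had 5.70, 5.13 and 3.59 CPM against 60.8, 62.4 and 66.1 CPM, a ratio of 13.1, and the lost region on the other side of the gene (chr1:88474845-88476845) had 24.5, 24.1 and 18.8 CPM against 14.2, 7.99 and 7.18 CPM. At Serp2, a region 72.2 kb outside the span (chr14:76629304-76631304) had 6.62, 8.19 and 8.61 CPM against 57.2, 69.2 and 72.3 CPM, and a region 32.3 kb from it (chr14:76596970-76598970) was lost with a ratio of 0.385. Atxn7l1, the only gene with more than 1 region of both kinds, had 2 gained regions followed by 2 lost ones along the gene. The most gained of these (chr12:33175170-33177170) had 6.07, 5.13 and 6.99 CPM against 43.0, 40.9 and 46.6 CPM, and the strongest lost one, over an internal start (chr12:33314479-33316479), had 71.4, 66.4 and 71.2 CPM against 28.4, 26.7 and 25.1 CPM. Gse1 had 1 gained region (ratio 2.44) and 2 lost ones (0.390 and 0.467) among 15.

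The 56 members outside the rule for named genes had most gained ratios of 2.00 to 8.88 (median 3.37), most lost ratios of 0.216 to 0.498 (median 0.422) and 2 to 12 kept regions. They included Abr, Atp1b1, Bard1, Bfsp1, Capn13, Carmil1, Ccnjl, Chd7, Crim1, E330021D16Rik, Egr1, Eml1, Epb41l3, Eya2, Fggy, Fmn1, Fstl1, Gpr157, H2az1, Hlcs, Hydin, Ier5, Itpr1, Kcnma1, Man2a1, Map3k5, Mecom, Med13l, Msi2, Mtmr7, Myo1e, Nek6, Parm1, Phldb2, Pkp1, Ppp1r3b, Rbm20, Rbms3, Sidt1, Slc43a2, Slc4a4, Slf2, Spaca7, St3gal3, Stox2, Svil, Tbl1xr1, Thsd4, Tlr2, Ttll11, Txn2, Vegfa, Vwa2, Wnt7b and Zfp407. At Spaca7, whose promoter is printed above, the region over the start (chr8:12572322-12574322) had 13.1, 18.3 and 15.2 CPM in control and 73.9, 67.3 and 75.1 CPM with RANKL. At Vwa2, picked after its values were seen, the start region (chr19:56873006-56875006) was lost, with 23.6, 25.2 and 20.6 CPM against 9.11, 7.07 and 5.64 CPM.

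The M cell list (18 genes with 2 or more kept regions), the NF-kB and TNF receptor family list (24) and the BMP and TGF-beta list (24) held no member, and with 1.68% over all genes lists of this size say little about absence. Gained regions without lost ones were found at 9 of the 18 M cell genes, 15 of the 24 NF-kB genes and 10 of the 24 BMP genes. Lost regions without gained ones were found at 0, 0 and 4 of them. Over all genes with 2 or more kept regions, 22.4% had gained and no lost regions and 11.5% lost and no gained ones. The goblet, Paneth, tuft, enteroendocrine, lipid and interferon lists held no member either. The list of fetal and regenerating epithelium gave 1 of 12, Areg. In all, 18 of the 91 genes were on a list.

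Within a gene, gained and lost regions were usually well separated. The nearest gained and lost region of a gene were a median of 56.2 kb apart, centre to centre. The distance was under 10 kb in 2 genes, over 50 kb in 48 and over 100 kb in 22. In 38 genes a gained and a lost region were neighbours with no kept region between, 27 of them among the 80 genes with 3 or more kept regions. In 60 genes there was 1 region of each kind, 17 had more than 1 gained and 15 more than 1 lost. Member genes had a median of 6 kept regions, against 3 over all genes with 2 or more, and a median length of 140 kb against 41.7 kb. The share of genes that were members was 0.438% with 2 kept regions, 1.33% with 3 to 5, 5.53% with 6 to 9 and 12.6% with 10 or more.

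Other regions make up most of the summed level of the member genes. The summed RANKL over control ratio had a median of 0.956 over the members and 0.938 over all genes with 2 or more kept regions. It lay between 1/1.5 and 1.5 in 78 members, above in 9 and below in 4. The sum was higher in every RANKL library than in any control library in 30 members, lower in 37 and overlapping in 24. These counts were not made for other genes, so they are not read as a trait of the members. Of single kept regions over all genes, 24.2% had the RANKL libraries all above and 38.2% all below. Being sums of regions chosen on the same contrast, the summed ratios are given without a test.

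**Figure D4:**
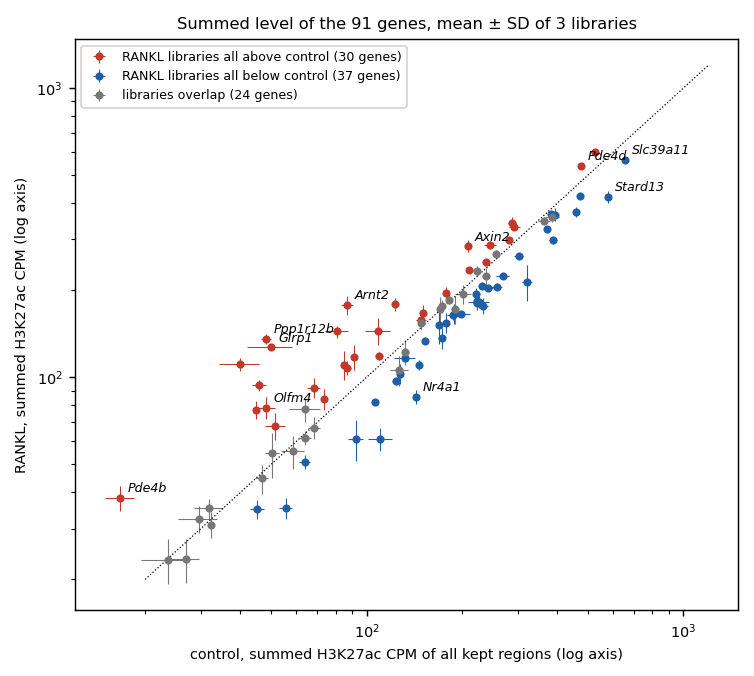
Summed H3K27ac CPM of all kept regions of each of the 91 genes, control against RANKL (log axes, mean and SD of 3 libraries). Red genes (30) have all RANKL libraries above control, blue (37) all below and grey (24) overlap, and most points lie near the dotted line of equality, with Ppp1r12b furthest above it at a ratio of 2.81.

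A larger share of lost than of gained regions lay at gene ends and starts. Within 2 kb of either end of a gene lay 29 of 111 lost regions (26.1%, Wilson 95% interval 18.9 to 35.0), 9 of 115 gained regions (7.83%, 4.17 to 14.2) and 40 of 404 other regions (9.90%, 7.36 to 13.2). In other genes with 2 or more kept regions the shares were 31.9% of lost, 11.1% of gained and 28.8% of other regions. Start sites were listed for 72 of the 91 genes. Of those genes' regions, 22 of 86 lost ones held a start (25.58%), against 4 of 95 gained ones (4.211%; Eml1, Ppp1r12b, Spaca7 and Stox2) and 29 of 332 other ones (8.735%). In other genes with 2 or more kept regions and a listed start, the shares were 26.98% of lost, 3.899% of gained and 25.59% of other regions. The lost and gained shares were thus similar in members and elsewhere, and the share of the other class was lower in members. A gene with more regions has no more ends, so the lower share is not read as a trait of the members. The median distance to the gene's nearest own start was 53.3 kb for gained, 29.6 kb for lost and 70.4 kb for other regions of members. In other genes with 2 or more kept regions it was 30.34, 15.36 and 15.22 kb. By side, 60 gained regions lay inside the gene, 19 before its start and 16 beyond its end, and for lost regions the numbers were 61, 18 and 7. Regions are not replicates, and members have more regions per gene than other genes, so no test is given. Another gene lay within 50 kb of 69 of the 226 gained or lost regions, and the nearest gene need not be the one a region acts on.

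**Figure D5:**
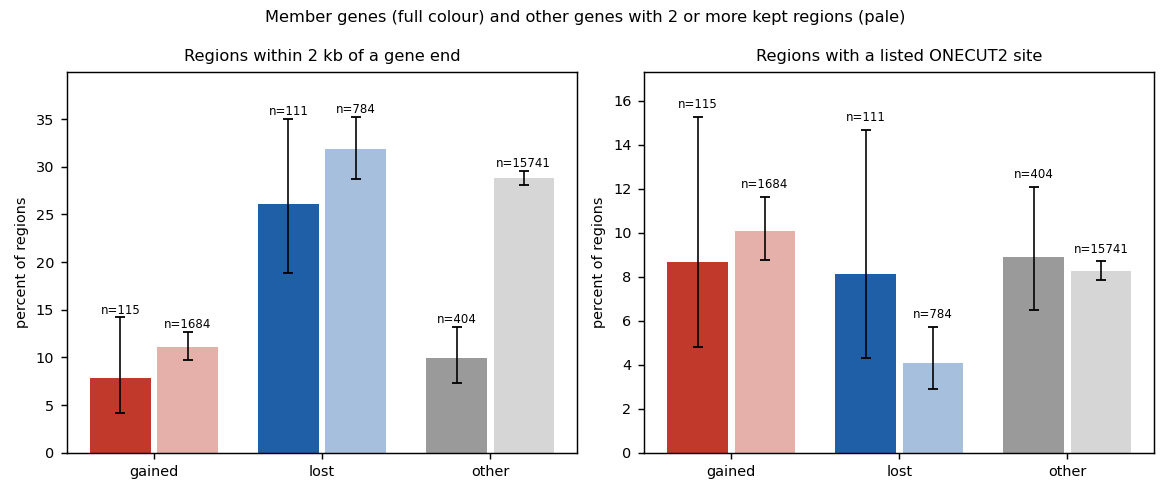
Percent of gained, lost and other regions within 2 kb of a gene end (left) and with a listed ONECUT2 site (right), in the member genes (full colour) and in other genes with 2 or more kept regions (pale), with Wilson 95% intervals and the number of regions above each bar. Among members, lost regions reach 26.1% at gene ends against 7.83% for gained ones. With all listed sites the ONECUT2 shares of the 3 classes lie between 8.11% and 8.91%. With sites of FDR 0.01 or less (not drawn) the lost share is 4.5045%, within the interval drawn for lost regions.

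ONECUT2, a homeodomain transcription factor, was measured with another antibody in the same conditions (3 and 3 libraries), and the authors' deposited table lists 7268 sites that differed, 7261 of them higher with RANKL. A listed site overlapped 10 of 115 gained regions (8.70%, Wilson 95% interval 4.79 to 15.3), 9 of 111 lost regions (8.11%, 4.32 to 14.7) and 36 of 404 other regions (8.91%, 6.51 to 12.1). In other genes with 2 or more kept regions the shares were 10.1% of gained, 4.08% of lost (2.91 to 5.71) and 8.27% of other regions. The interval of the members' lost regions overlaps that of lost regions elsewhere. These shares count all listed sites. With sites of FDR 0.01 or less, the share of the members' lost regions was 4.5045%, against 8.696% of gained and 8.168% of other regions. That lost share still lay within the interval of 4.32 to 14.7 for all listed sites, so no difference between the classes is read from it. Shares in other genes were not computed at that FDR. A site was listed in at least 1 kept region of 38 members, and 1 gene, Areg, had one in both a gained and a lost region.

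The ONECUT2 sites in gained regions had a higher median fold change than those in lost regions. The median log2 fold change in the authors' deposited table was 3.10 at sites in gained, 1.07 in lost and 1.62 in other member regions, and over all kept regions 2.70, 1.14 and 1.62. All 10 sites in gained regions were higher with RANKL, from 1.97 at Lipc to 5.55 at Cntnap2, per the authors' deposited table. Among the named genes, the log2 fold changes of the authors' deposited table were 5.12 at Glrp1, 3.21 at Areg, 2.85 at Ppp1r12b and 2.35 at Lfng. In lost regions 7 of the 9 sites were also higher with RANKL in the authors' deposited table, among them Areg (1.43), Plekhg1 (1.07) and Smoc2 (0.98), so at these regions acetylation was lower while the ONECUT2 signal was higher. The other 2 sites, at Stard13 (-1.15) and E330021D16Rik (-0.86, picked after its values were seen), were among the 7 sites of the authors' deposited table that were lower with RANKL. Both lay in lost regions, that of Stard13 (chr5:151295431-151297431) with 16.0, 15.8 and 12.2 H3K27ac CPM in control and 6.19, 7.99 and 6.66 CPM with RANKL. The authors' deposited table holds no values per library, so the spread of these fold changes is not known.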

How the data were processed

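H3K27ac was measured by ChIPmentation in 3 RANKL and 3 control libraries. The authors' deposited table gives raw read counts over 55050 regions of 2000 bp. The authors' deposited ONECUT2 table came from DiffBind, a tool named in the submitters' processing notes, and gives log2 mean levels, a log2 fold change and p-values with an FDR of up to 0.0496 per site. The submitters' processing notes name mm10 as the build, and which aligner and peak caller made the tables is not given in the sources used here. Coordinates are printed as deposited, and whether region starts are counted from 0 is not stated.

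Counts were divided by column sums to give CPM. Regions were assigned to the nearest of 21883 RefSeq protein-coding spans (GRCm38.p6) within 100 kb. Exons and introns were not resolved. Members and gene lists were chosen with earlier results of these data known. All regions were tested with edgeR 4.0.16 (R 4.3.3, TMM, filterByExpr, Benjamini-Hochberg adjusted p under 0.05) as a description, with DESeq2 1.42.0 as an alternative, and the test was checked on simulated data. An ONECUT2 overlap needed 1 bp. Intervals cover counting error only.

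Named genes were the 10 with the largest log2 difference between most gained and most lost region, the 5 with the most kept regions, the 5 with the closest pair, the 5 with the highest summed CPM in gained and lost regions, and every member on a list, 35 in all. The labels number the libraries of both groups by differentiation experiment, and the replicate block rests on that number. Deviations of same-numbered libraries from their group means correlated at 0.013, -0.012 and -0.032 over regions, and those of other pairs at up to 0.038. The input libraries, and ONECUT2 levels of single libraries, were not used here. A few gene names, among them that of 1 member, are not reported here.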

Additional observations from a re-analysis of the deposited data

How the results depend on the processing

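The number of genes with both a gained and a lost region depended on the limits. It was 91 by the rule, 141 with a minimum mean CPM of 5, 167 with no minimum and 28 with a minimum of 20. A ratio limit of 1.5 gave 548 genes and one of 3 gave 7 (Arnt2, Fggy, Nav2, Pkp1, Stox2, Tlr2 and Vwa2). With a gene within 10 kb there were 58, and with regions in the gene span only 51. With the replicate block, where the ratio had to pass its limit between same-numbered libraries, 42 genes were left, while a replicate block in the edgeR fit changed no call at the 115 gained and 111 lost regions. Leaving out 1 library at a time gave 92 to 104 genes, and 59 genes were members each time. Scaling by TMM gave 128 genes and by DESeq2 size factors 127, each with 85 of the 91, and removing the trend with signal strength gave 81 with 69 of them. Assigning regions to the nearest start site, an alternative chosen after seeing the data, gave 69 genes with 45 of the 91. Start sites were listed for only 72 of the 91, and the rest could not be members under this alternative. Its count therefore mixes missing start sites with the change of assignment. At the named genes, all 630 alternative log2 ratios of the most gained and most lost regions kept their sign and 31 moved by more than the replicate SD. The median distance between the nearest gained and lost regions fell from 56.2 to 31.7 kb at a ratio limit of 1.5. Gained regions with few control reads have the least certain ratios.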
